A study of Mus musculus with 24 samples.

Results

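Predicted genes of satellite-like sequence were followed in the nuclear RNA of mouse embryonic stem (ES) cells lacking METTL3 or METTL14. These were the 10 genes Gm10800, Gm10801, Gm10715, Gm10717, Gm10718, Gm10719, Gm10720, Gm10721, Gm10722 and Gm11168, of the 47937 genes in each count table. They were selected by name, because the m6A enrichment of Gm10801 differed between lines in these same libraries, and they were set beside GSAT_MM, the row that holds the major satellite repeats. The m6A immunoprecipitation values therefore describe the 10 genes without a test. The separate RNA-seq libraries, which the choice did not use, were tested. The inputs that entered the choice are nuclear RNA of the same lines. The RNA-seq level of Gm10801 in Mettl14KO is therefore not independent of the choice.

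The lines WT26, Mettl14KO, RBC and Mettl3KO were compared, all grown on gelatin without feeder cells in medium with 15% Serum Replacement and LIF. WT26 was the wild-type parent of Mettl14KO, a single clone with a small homozygous frameshift deletion in Mettl14 made with CRISPR/Cas9. RBC, a line carrying BirA-V5 and Cre-ERT2 at Rosa26, was the control of Mettl3KO, a single clone derived from it that carries the same alleles. Each line gave 2 RNA-seq libraries, 2 input libraries and 2 m6A immunoprecipitates (IP) from methylated RNA immunoprecipitation (MeRIP), 24 libraries in all. With 1 clone per genotype, the mutation and the clone cannot be told apart.

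The methyltransferase METTL3 and its partner METTL14 form the complex that writes N6-methyladenosine (m6A) on RNA, and an antibody to m6A pulls down fragments that carry the mark. Major satellites are AT-rich units repeated head to tail in the heterochromatin beside mouse centromeres, and they are transcribed at low levels. Genome assemblies hold only small stretches of them. A gene model placed on such a stretch can collect reads that came from the same sequence elsewhere, so the counts of these genes are reads assigned to the models, and their origin in the genome is uncertain.

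The models lay in 2 places of the GRCm38 assembly, and all 10 were annotated as protein coding by GENCODE. Gm10801 (ENSMUSG00000075015.3, chr2:98662237-98664083, plus strand) and Gm10800 (ENSMUSG00000075014.1, chr2:98666547-98667301, minus strand) stood 2463 bp apart on chromosome 2. The other 8 lay on the plus strand of chromosome 9 between 3000922 and 3038316, close to its assembled start. All 8 overlapped the span of Gm26870, a lincRNA on the minus strand (chr9:3000282-3038313), with Gm10715 ending just past it at 3038316. Of the 8, 5 had an exon that overlapped an exon of Gm26870. Gm17535, a further predicted gene of this block that is not in the set (chr9:3034599-3035805, plus strand), had 0 to 6 reads in the RNA-seq libraries and 0 to 5 in the MeRIP libraries. Where strand was not used in counting, reads of these genes and of Gm26870 cannot be told apart. The exons of the 10 genes covered 504 to 3856 bp, and 81.5% to 100% of their bases were soft-masked as repeats. The class of the masked repeats was not analysed here. The chromosome 9 block had a period of 234 bp, a shift at which 71.3% of its bases were equal, against a median of 31.3% over shifts of 20 to 400 bp.

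The last exons of the models, the only exons aligned here, show how far that of Gm10801 stands from the rest. They are printed from the RefSeq copy of GRCm38.p6 on the annotated strand, at chr2:98663961-98664083 for Gm10801 (plus strand), chr2:98666547-98666669 for Gm10800 (minus), chr9:3014222-3014344 for Gm10721 (plus) and chr9:3025094-3025218 for Gm10718 (plus). Capitals mark bases that differ from the majority base of the 10 aligned last exons.
Gm10801: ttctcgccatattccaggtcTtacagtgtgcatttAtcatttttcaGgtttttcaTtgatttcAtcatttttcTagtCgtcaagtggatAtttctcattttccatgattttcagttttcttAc
Gm10800: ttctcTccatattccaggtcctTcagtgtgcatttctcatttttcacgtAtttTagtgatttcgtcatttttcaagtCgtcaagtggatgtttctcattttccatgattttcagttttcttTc
Gm10721: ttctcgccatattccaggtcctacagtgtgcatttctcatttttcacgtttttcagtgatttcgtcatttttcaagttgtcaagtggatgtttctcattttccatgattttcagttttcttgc
Gm10718: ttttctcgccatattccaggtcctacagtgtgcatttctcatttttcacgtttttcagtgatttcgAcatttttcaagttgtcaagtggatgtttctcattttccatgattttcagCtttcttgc
Gm10721 was identical to the majority sequence, Gm10718 differed at 2 bases, Gm10800 at 6 and Gm10801 at 9. The last exons of the 8 chromosome 9 genes were 93.6% to 99.2% identical to each other over 28 pairs. The last exon of Gm10801 was 88.6% to 92.7% identical to them, and that of Gm10800 was 91.9% to 95.1% identical.

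The 2 strands of these models differ in base composition. Adenine, the base that m6A modifies, made up 17.2% to 18.3% of the exon bases on the annotated strand and 45.8% to 47.5% on the opposite strand. The m6A consensus of METTL3 and METTL14 (2 purines, then AC, then any base other than G) was found 2.94 to 4.61 times per kb on the annotated strand and 21.2 to 28.0 times per kb on the opposite one. None of the 10 last exons held the motif on the annotated strand, and all 10 held it at least 2 times on the other. Among 32851 promoter windows of 123 bases, 79.3% held it on the strand of their gene and 48.7% held it 2 or more times. A match to these letters is a description of the sequence and not a methylated site.

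Reads could be placed on the chromosome 2 models far better than on those of chromosome 9. Of all 75-base windows, the read length of the MeRIP libraries, that overlapped an exon of Gm10801, 88.5% (700 of 791) occurred at 1 position of the assembly, and none occurred at more than 2. The share was 84.2% (698 of 829) for Gm10800. On chromosome 9 it ran from 0 of 886 windows for Gm10721 to 42.9% for Gm10722. No window of the 10 genes occurred at more positions than the 100 that the MeRIP alignment allowed. Exact matches in the assembly say nothing of copies that the assembly leaves out.

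**Figure D1:**
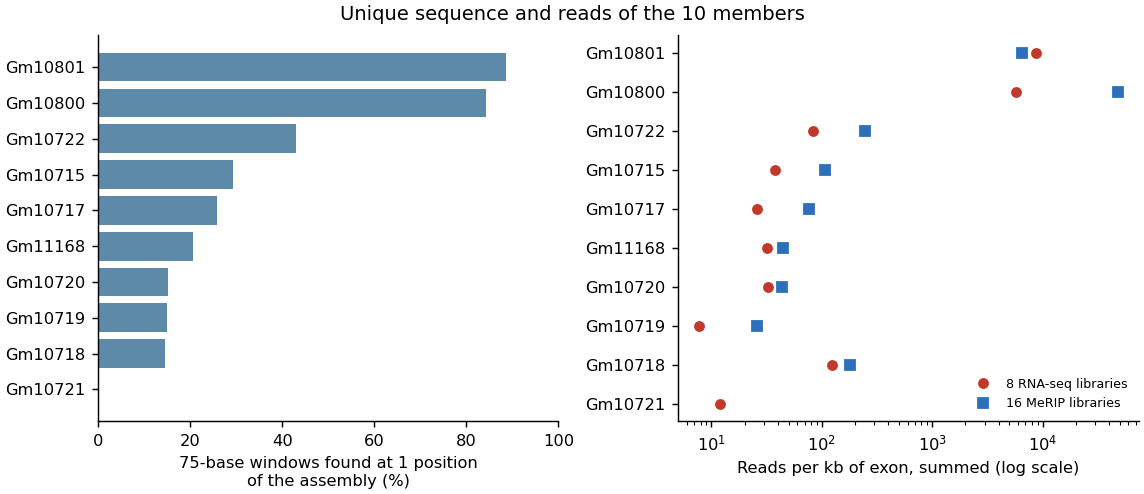
Share of 75-base windows over the exons of each gene that occur at 1 position of GRCm38 (percent). Gm10801 (88.5%) and Gm10800 (84.2%) stand above the 8 chromosome 9 genes, which lie between 0 and 42.9%.

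Totals were 11321459 to 13743181 counts in the RNA-seq libraries and 9394163 to 28441282 in the MeRIP libraries. All 10 markers of ES cells fixed for the check were present in every line, with the lowest mean, 341 normalized counts, for Utf1 in Mettl3KO. Their summed level was 37623 to 38737 in WT26, 27265 to 27369 in Mettl14KO, 33504 to 34029 in RBC and 19957 to 20804 in Mettl3KO. Markers of primitive endoderm summed to 52.4 to 55.8 in WT26, 165 to 173 in Mettl14KO, 124 to 133 in RBC and 99.1 to 125 in Mettl3KO. In the same order, fibroblast markers summed to 81.4 to 84.8, 27.3 to 38.1, 103 to 116 and 43.5 to 56.4, neural markers to 822 to 849, 642 to 675, 1197 to 1213 and 1413 to 1493, early mesoderm markers to 37.1 to 46.2, 57.1 to 57.5, 23.7 to 35.6 and 28.7 to 37.3, and trophectoderm markers to 77.3 to 84.1, 70.1 to 73.1, 48.3 to 62.1 and 31.2 to 45.2. A sum can hide single markers that moved the other way, and values of every marker are not given here. Pax6, the lowest neural marker, averaged 22.2 in WT26 and 86.5 in Mettl14KO, where the neural sum was lower. Sox17, the lowest primitive endoderm marker in Mettl14KO, averaged 3.98 there, although that sum was higher than in WT26. In WT26, 1 fibroblast marker averaged 77.3 with Postn and Dcn at 0, and 1 trophectoderm marker averaged 79.2. The part of these markers in the results was not tested. In such bulk samples, fewer cells of a type and less RNA per cell cannot be told apart. Mettl14 RNA differed by -0.31 on the log2 scale between Mettl14KO and WT26 and Mettl3 RNA by -0.16 between Mettl3KO and RBC. A count over the whole gene does not show a small deletion, so these counts do not check the genotypes.

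Nearly all reads of the 10 genes fell on the chromosome 2 pair. Gm10800 and Gm10801 held 95.6% of the 8525 reads of the 10 genes in RNA-seq and 97.7% of the 35752 reads in MeRIP. The 8 chromosome 9 genes shared 379 reads over the 8 RNA-seq libraries and 837 over the 16 MeRIP libraries. After the filter on low counts 6 of 10 genes remained in RNA-seq (Gm10800, Gm10801, Gm10717, Gm10718, Gm10722 and Gm11168). In MeRIP 7 of 10 remained, these and Gm10715. Gm10719, Gm10720 and Gm10721 passed in neither table, and Gm10721, whose windows all had other copies, was at 0 in all 16 MeRIP libraries and had 8 reads in RNA-seq.

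**Figure D2:**
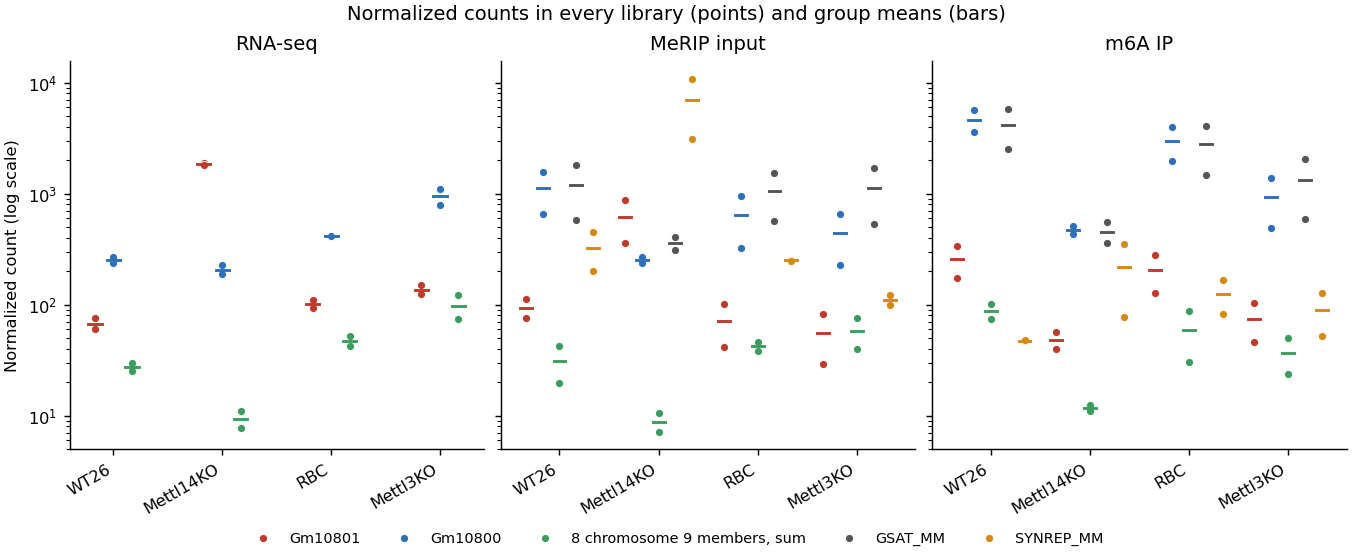
Normalized counts (log axis) of Gm10801, Gm10800 and the chromosome 9 genes summed, beside GSAT_MM and SYNREP_MM in MeRIP, with 1 point per library of each line. Gm10801 stands at 1825 and 1879 in the Mettl14KO RNA-seq libraries, against 60.1 to 150 in the other 6.

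Gm10801 rose 27.1-fold in the RNA-seq of Mettl14KO. Its normalized counts were 75.1 and 60.1 in WT26, 1879 and 1825 in Mettl14KO, 110 and 92.7 in RBC, and 150 and 124 in Mettl3KO. The 2 Mettl14KO libraries stood far above the other 6, and no 2 lines overlapped. The log2 difference to WT26 was 4.76 ± 0.11 (SE, n = 2 per line; edgeR quasi-likelihood test, adjusted p = 1.58e-15). The SE of this and every other fitted log2 value was derived from the F statistic of its test. In order of mean level the lines were WT26 (67.6 ± 10.6, SD), RBC (102 ± 12.5), Mettl3KO (137 ± 18.2) and Mettl14KO (1852 ± 38.3). The step from WT26 to RBC was 0.57 ± 0.15 on the log2 scale (edgeR, adjusted p = 0.00596) and that from RBC to Mettl3KO 0.44 ± 0.13 (edgeR, adjusted p = 0.00841), both below a 2-fold change. With leave-one-out fits the Mettl14KO difference stayed between 4.62 and 4.94. The MeRIP inputs of this clone, in which Gm10801 was also high, entered the choice of the gene. The p-value of the Mettl14KO difference is therefore not independent of that choice.

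Gm10800, 2463 bp away, did not share this rise. Its normalized RNA-seq counts were 238 and 269 in WT26, 187 and 227 in Mettl14KO, 414 and 412 in RBC, and 1111 and 789 in Mettl3KO. Mettl14KO was lowest and Mettl3KO highest, with no overlap between lines. Between Mettl3KO and RBC it rose 2.31-fold (log2 1.21 ± 0.12, SE, n = 2 per line; edgeR, adjusted p = 2.14e-07). Between Mettl14KO and WT26 the log2 difference was -0.29 ± 0.15 (edgeR, adjusted p = 0.122), and RBC was above WT26 by 0.71 ± 0.14 (edgeR, adjusted p = 0.000566). Per kb of exon, the normalized level of Gm10801 was 134 ± 20.95 in WT26 (SD, n = 2) and 3674 ± 76.1 in Mettl14KO, whereas that of Gm10800 was 384 ± 33.9 and 314 ± 42.5. Within single RNA-seq libraries, Gm10801 had 10.03 and 8.04 reads per read of Gm10800 in Mettl14KO and 0.135 to 0.316 in the other 6.

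The chromosome 9 genes were near the detection limit in RNA-seq and were highest in Mettl3KO. Their summed normalized counts were 25.3 and 30.1 in WT26, 11.02 and 7.79 in Mettl14KO, 42.5 and 52.2 in RBC, and 123 and 73.5 in Mettl3KO. No 2 of the 4 lines overlapped. As ratios of summed reads, Mettl14KO was at 0.340 of WT26 (95% interval 0.191 to 0.580), Mettl3KO at 2.07 of RBC (1.61 to 2.68) and RBC at 1.71 of WT26 (1.21 to 2.43). These intervals cover counting error only, not the spread between libraries, and reads that fit several of the 8 models can move between them.

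Of single genes of this block, Gm10717 had 11 and 18 reads in WT26, 6 and 1 in Mettl14KO, 7 and 7 in RBC, and 29 and 21 in Mettl3KO. It fell by 2.01 ± 0.60 on the log2 scale in Mettl14KO (SE; edgeR, adjusted p = 0.00975) and rose by 1.63 ± 0.47 in Mettl3KO (edgeR, adjusted p = 0.00668). Gm10718 had 7 and 2 reads in WT26, 1 and 0 in Mettl14KO, 7 and 10 in RBC, and 45 and 13 in Mettl3KO. It rose by 1.56 ± 0.51 in Mettl3KO (edgeR, adjusted p = 0.0153), and its 1 read in Mettl14KO against 9 in WT26 gave a ratio of 0.118 (95% counting interval 0.00270 to 0.853). Gm10722 and Gm11168 each had 3 reads in WT26 and 22 and 18 in RBC, ratios of 8.78 (2.64 to 45.8) and 6.44 (1.88 to 34.1). Gm10715, Gm10719, Gm10720 and Gm10721 had 0 to 10 reads per library.

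In Mettl14KO against WT26, 2 of the 6 genes tested passed an adjusted p of 0.05 with a change of over 1 on the log2 scale, Gm10801 up and Gm10717 down, where 14.5% of all 17021 genes tested passed. In Mettl3KO against RBC, 3 of 6 passed, all up (Gm10800, Gm10717 and Gm10718), against 13.6% of all genes. Between the controls, RBC against WT26, 2 of 6 passed, both up (Gm10722 and Gm11168), against 8.98%, each resting on 3 reads in WT26. Gm10718, Gm10722 and Gm11168 passed the filter only where the Mettl3KO libraries were in the fit, since fits of Mettl14KO with WT26 alone and of RBC with WT26 alone kept 3 and 2 members and the fit of Mettl3KO with RBC kept 6. These counts are therefore of members admitted in part through the line where they are high, and are no support for a direction of the set. Without the filter, 3 of 10 were called in Mettl14KO, 3 of 10 in Mettl3KO and 2 of 10 between the controls. The share of all genes called without the filter is not given here, so these counts cannot be read as a result about the members. The 6 genes are not all 10 members, and genes that share reads are not independent of each other.

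The 2 knockouts were then compared, each against its own control. Gm10801 differed by 4.32 ± 0.18 on the log2 scale (Mettl14KO effect minus Mettl3KO effect; SE; edgeR, adjusted p = 9.21e-12), Gm10800 by -1.49 ± 0.19 (adjusted p = 7.97e-06) and Gm10717 by -3.64 ± 0.76 (adjusted p = 0.000849). Gm10718 differed by -4.44 ± 1.44 (edgeR, adjusted p = 0.0186), a value that turns on the 1 read it had in Mettl14KO. Thus 4 of 6 genes passed, where 43.2% of all genes did, and Gm10801 was opposite in sign to the other 3. Gm10718 is among them although it passed the filter only where the Mettl3KO libraries, in which it is highest, were in the fit. The count also holds Gm10801, the gene behind the choice of the set. It is therefore no support for a direction of the set.

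Several of the smaller calls rested on 1 library. Without WT26 replicate 2, Gm10717 in Mettl14KO was at -1.49 (edgeR, adjusted p = 0.119), and without Mettl14KO replicate 2 at -1.23 (adjusted p = 0.133). Without Mettl3KO replicate 1, Gm10718 was at 0.54 (edgeR, adjusted p = 0.520) and Gm10800 at 0.94 (adjusted p = 5.69e-08), under the fold limit. Without RBC replicate 2, Gm10717 (1.52, edgeR, adjusted p = 0.0525) and Gm10718 (1.72, adjusted p = 0.0515) lost their call in Mettl3KO, and without RBC replicate 1 Gm10718 did (1.43, adjusted p = 0.0701). Between the controls no member was called without WT26 replicate 2, and 1 was called in each of the other leave-one-out fits of WT26 and RBC.

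**Figure D3:**
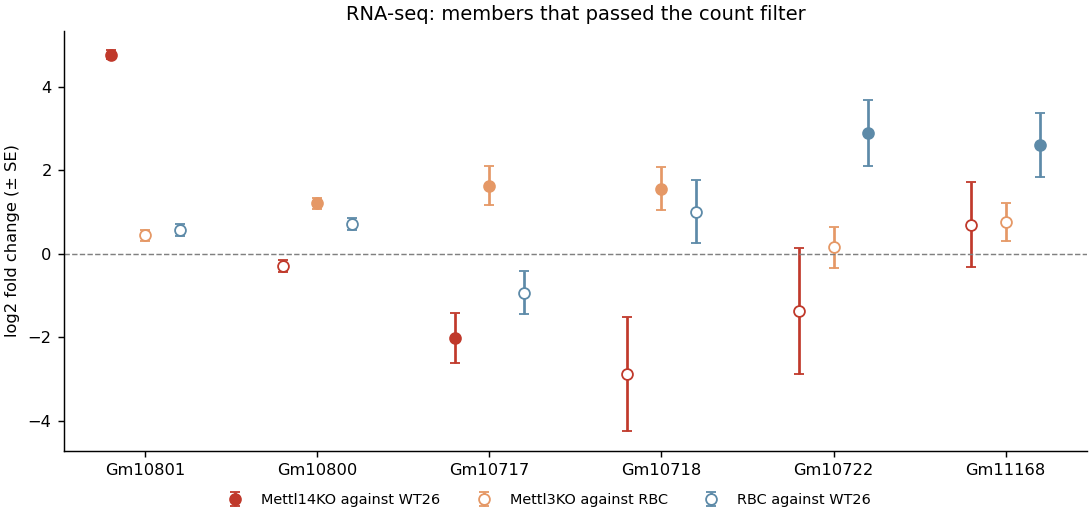
RNA-seq log2 fold changes of the 6 genes tested, in Mettl14KO against WT26, Mettl3KO against RBC and RBC against WT26. Bars are standard errors derived from the F statistic of each test, and filled points are past both thresholds. Gm10801 stands at 4.76 in Mettl14KO, and Gm10800, Gm10717 and Gm10718 lie between 1.21 and 1.63 in Mettl3KO.

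Gm26870, the lincRNA on the other strand of the chromosome 9 block, had 73 and 43 reads in WT26, 4 and 7 in Mettl14KO, 35 and 36 in RBC, and 25 and 16 in Mettl3KO. It fell by 3.35 ± 0.36 on the log2 scale in Mettl14KO (SE; edgeR, adjusted p = 5.21e-07) and by 0.98 ± 0.30 in Mettl3KO (adjusted p = 0.0110). In Mettl3KO it moved against Gm10717 and Gm10718, which rose there, and in Mettl14KO it fell together with Gm10717.

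The major satellite row GSAT_MM was present in the MeRIP table, and the RNA-seq table held no repeat rows. Its normalized input counts were 1795 and 580 in WT26, 408 and 309 in Mettl14KO, 1532 and 564 in RBC, and 1695 and 536 in Mettl3KO. Its IP counts were 5834 and 2530, 551 and 356, 4097 and 1467, and 2071 and 596 in the same order. Both Mettl14KO inputs were below all other inputs, and both Mettl14KO IPs below all other IPs. In every line, replicate 1 was above replicate 2 in the input and in the IP. The input difference between Mettl14KO and WT26 was -1.72 ± 0.76 on the log2 scale (SE; edgeR, adjusted p = 0.436). Blocked on replicate number, it was -1.51 (adjusted p = 0.0262), past the threshold, and without WT26 replicate 1 it was -0.69 (adjusted p = 1.0).

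The log2 ratio of IP to input of GSAT_MM, taken per replicate pair, averaged 1.91 ± 0.30 in WT26 (SD, n = 2), 0.32 ± 0.16 in Mettl14KO, 1.40 ± 0.03 in RBC and 0.22 ± 0.10 in Mettl3KO. Each knockout lay below its control in both pairs. Fitted over all libraries, the enrichment was 1.81 in WT26 (edgeR, adjusted p = 0.0759) and 1.41 in RBC (adjusted p = 0.161). With input and IP of a pair kept as a block, it was 1.91 (adjusted p = 0.00356) and 1.40 (adjusted p = 0.0136), past the threshold of 0.05. In the knockouts it was 0.34 (adjusted p = 0.758) and 0.26 (adjusted p = 0.859) without the block. The change of enrichment was -1.48 ± 1.05 in Mettl14KO (SE; edgeR, unadjusted p = 0.182) and -1.15 ± 1.04 in Mettl3KO (unadjusted p = 0.286, adjusted p = 0.854), neither past the threshold. In both contrasts 0 of the 22621 features tested passed, so the lack of a call says nothing particular to GSAT_MM. The study itself, which analysed repeat reads with DESeq2, reported a significant decrease for these transcripts in Mettl14KO. From the same sequencing it reported a reduction in Mettl3KO. By MeRIP with RT-qPCR, a separate measure, it reported reduced m6A enrichment of major satellite RNA in both knockouts.

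Gm10800 ran close to GSAT_MM in these libraries. Its normalized input counts were 1581 and 654 in WT26, 269 and 238 in Mettl14KO, 959 and 327 in RBC, and 651 and 228 in Mettl3KO. In the IPs it was at 5725 and 3577, 436 and 512, 3952 and 1961, and 1378 and 487. Its log2 IP over input was 2.15 ± 0.42 in WT26 (SD, n = 2), 0.90 ± 0.29 in Mettl14KO, 2.31 ± 0.38 in RBC and 1.09 ± 0.01 in Mettl3KO. As for GSAT_MM, both pairs of each knockout lay below both pairs of its control. In all 4 lines the mean was above that of GSAT_MM. Gm10800 had 0.384 to 1.44 reads per GSAT_MM read over all 16 libraries, and over these 16 the log2 normalized counts of the 2 had a Pearson r of 0.927 and a Spearman rho of 0.888, as a description over libraries that share lines and depth.

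**Figure D4:**
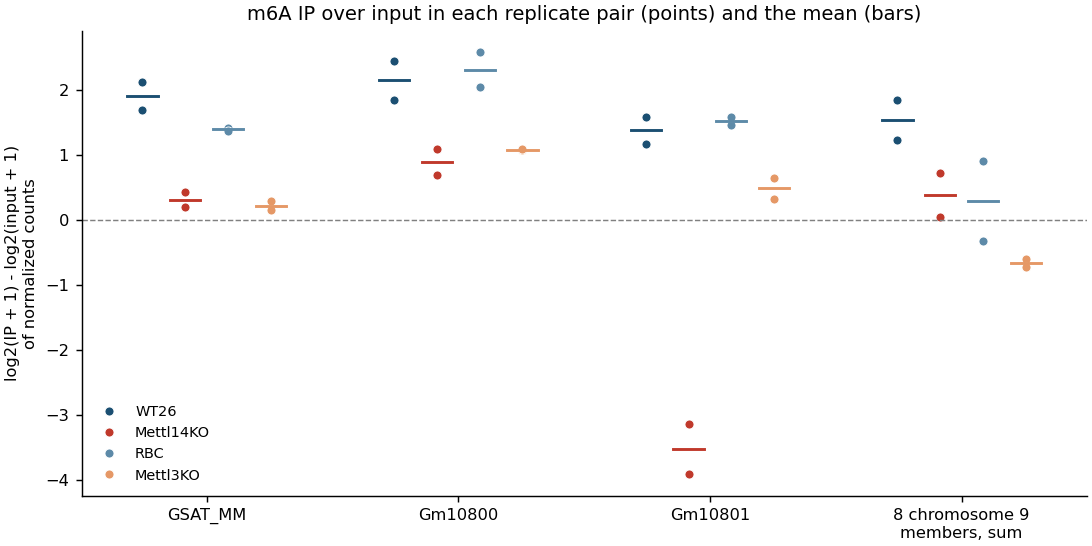
Log2 ratio of IP to input of each replicate pair for Gm10801, Gm10800, the chromosome 9 genes summed and GSAT_MM in the 4 lines (pseudocount of 1). Gm10801 averages -3.52 in Mettl14KO, where GSAT_MM averages 0.32 and Gm10800 0.90.

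The 2 assays of Gm10800 differed in direction between some lines. Its fitted input difference in MeRIP, given as a description, was -0.54 ± 0.62 on the log2 scale (SE) between Mettl3KO and RBC and -0.80 ± 0.62 between RBC and WT26, where RNA-seq gave 1.21 and 0.71. Between Mettl14KO and WT26 both were negative, -2.14 ± 0.65 in the inputs and -0.29 in RNA-seq. Gm10801 was higher in Mettl14KO than in WT26 in both, by 2.70 ± 0.63 in the inputs and 4.76 in RNA-seq, whereas between Mettl3KO and RBC it was at -0.32 ± 0.64 in the inputs and 0.44 in RNA-seq, and between RBC and WT26 at -0.40 ± 0.63 and 0.57.

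Gm10801 followed GSAT_MM in the IPs and left it in the Mettl14KO inputs. Its normalized input counts were 112 and 75.7 in WT26, 872 and 356 in Mettl14KO, 101 and 41.7 in RBC, and 82.7 and 28.9 in Mettl3KO. Both Mettl14KO inputs were above all others. In the IPs it was at 339 and 173 in WT26, 57.03 and 39.7 in Mettl14KO, 282 and 127 in RBC, and 104 and 45.8 in Mettl3KO, with Mettl14KO lowest of the means. Over the 8 IPs its log2 counts had an r of 0.978 with GSAT_MM and a rho of 0.952, and over the 8 inputs an r of -0.329 and a rho of -0.167. The closeness in the IPs was not particular to Gm10801. There r with GSAT_MM was 0.959 for Gm10800 and 0.991 for Gm26870. For the chromosome 9 genes with reads it ran from 0.429 (Gm10719) to 0.978 (Gm10717).

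The log2 IP over input of Gm10801 was 1.38 ± 0.29 in WT26 (SD, n = 2), -3.52 ± 0.55 in Mettl14KO, 1.53 ± 0.08 in RBC and 0.49 ± 0.22 in Mettl3KO. Its change in Mettl14KO, the value that led to the choice of these genes, was -5.08 on the log2 scale in the fit, against -1.16 for Gm10800 and -1.48 for GSAT_MM. In Mettl3KO the 3 changes were -1.12, -1.12 and -1.15. The numerator and denominator both moved in Mettl14KO, the input of Gm10801 being above that of WT26 and the IP below it.

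Counts within single libraries need no normalization between libraries. Gm10801 had 0.0488 to 0.131 reads per GSAT_MM read in 14 of 16 MeRIP libraries, with a median of 0.0686. In the 2 Mettl14KO inputs it had 2.14 and 1.15. In the Mettl14KO IPs it had 0.103 and 0.112, above the other 6 IPs (0.0503 to 0.0864) and below an input of WT26 (0.131). Against Gm10800 it had 3.24 and 1.496 reads per read in the Mettl14KO inputs, 0.0711 to 0.127 in the other 6 inputs and 0.0483 to 0.131 in the 8 IPs.

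**Figure D5:**
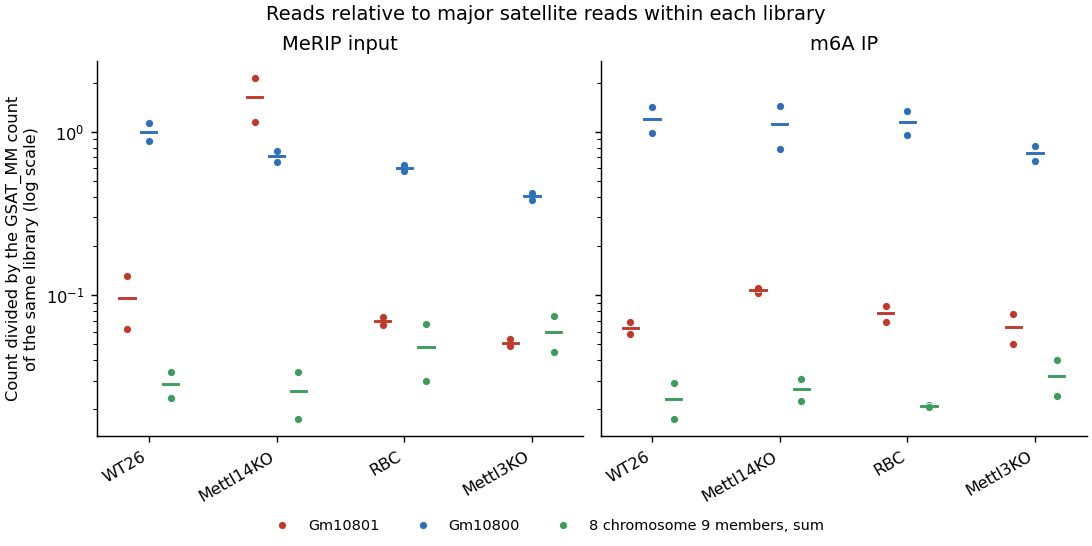
Reads per GSAT_MM read (log axis) in each input and IP library for Gm10801, Gm10800 and the chromosome 9 genes summed. For Gm10801 the Mettl14KO inputs stand at 2.14 and 1.15 and the other 14 libraries at 0.0488 to 0.131, and Gm10800 stays between 0.384 and 1.44 in all 16.

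The chromosome 9 genes, taken as a sum, were lowest in Mettl14KO as GSAT_MM was, on few reads. Their summed normalized input counts were 42.4 and 19.7 in WT26, 7.17 and 10.5 in Mettl14KO, 46.1 and 37.9 in RBC, and 76.3 and 40.1 in Mettl3KO, and the IPs held 101 and 73.8, 12.5 and 10.9, 87.5 and 30.2, and 50.1 and 23.9. The sum had 0.0174 to 0.0749 reads per GSAT_MM read over the 16 libraries, a range in which Mettl3KO input replicate 2 was highest. Its log2 IP over input was 1.55 ± 0.43 in WT26 (SD, n = 2), 0.39 ± 0.47 in Mettl14KO, 0.30 ± 0.87 in RBC and -0.66 ± 0.09 in Mettl3KO. In RBC the 2 pairs differed in sign, and in 3 of the 8 pairs, RBC pair 2 and both Mettl3KO pairs, the ratio was below 0 where that of GSAT_MM was above it.

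Single chromosome 9 genes had 0 to 73 reads per MeRIP library. Gm10717, the one with most, had 16 and 2 reads in the WT26 inputs and 59 and 23 in the IPs, and 6 and 2 against 6 and 1 in Mettl14KO. In RBC it had 21 and 10 in the inputs and 73 and 7 in the IPs, and in Mettl3KO 29 and 9 against 28 and 4. Its Pearson r with GSAT_MM over the 16 libraries was 0.839, and the other 6 chromosome 9 genes with reads had 0.519 (Gm10719) to 0.853 (Gm10715). Gm10801 had 0.297, the lowest of the 9 genes with reads. In sparse counts such values are a description only.

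Over the 7 genes that could be fitted in MeRIP, the median enrichment was 1.72 in WT26, 0.90 in Mettl14KO, 0.76 in RBC and -0.50 in Mettl3KO, against -0.01 to 0.02 over all 22621 features. In Mettl14KO, Gm10718, Gm10722 and Gm11168 had 3 reads or fewer on both sides, and without them and with Gm10715 at its bound the median of the 4 others was -0.38. Members can pass the filter through the control IPs where they are high. Gm10715 had 22 and 6 reads in the WT26 IPs and 4 and 0 in the inputs. The medians are therefore set in part by the filter and are no support for an enrichment of the set. Of the genes it removed, Gm10719 averaged 0.07 in WT26 and Gm10720 1.04, and Gm10721 had no reads.

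Another satellite row moved with Gm10801 in the Mettl14KO inputs. The study names SYNREP as the minor satellite repeats. It had itself reported that they were strongly derepressed in this Mettl14KO clone and not enriched for m6A. SYNREP_MM had 10842 and 3136 normalized input counts in Mettl14KO and 99.6 to 447 in the other 6 inputs. Mettl14KO was 21.8-fold above WT26 (log2 4.45 ± 0.74, SE; edgeR, adjusted p = 0.0208). Without WT26 replicate 1, WT26 replicate 2 or Mettl14KO replicate 1, the difference was 3.97, 5.13 and 3.29 with adjusted p of 0.304, 0.104 and 0.118 (edgeR). In the Mettl14KO IPs SYNREP_MM had 355 and 78.0. Its enrichment there was -4.99 on the log2 scale (edgeR, adjusted p = 0.00379), against -2.75 in WT26 (adjusted p = 0.0133). Over the 8 inputs, SYNREP_MM and Gm10801 had a Pearson r of 0.923 and a Spearman rho of 0.690, and over the 8 IPs an r of -0.185. Whether reads are shared between the 2 was not tested.

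MMSAT4, a satellite subfamily of far higher counts, was enriched in the IPs of all 4 lines, by 1.64 in WT26, 1.52 in Mettl14KO, 1.70 in RBC and 1.27 in Mettl3KO on the log2 scale (edgeR, adjusted p = 0.00629, 0.00952, 0.00728 and 0.0348). With input and IP pairs as a block, the Mettl3KO value was 1.27 with an adjusted p of 0.0692. With 1 pair left out the values lay between 1.22 and 2.03, and the call was lost without replicate 2 of any line and without replicate 1 of Mettl3KO (adjusted p 0.235 to 0.748). The change of enrichment was -0.12 ± 0.43 in Mettl14KO and -0.42 ± 0.43 in Mettl3KO (SE; edgeR, unadjusted p = 0.782 and 0.344). Of 9 satellite rows in the table, 4 others were tested. Their inputs differed between Mettl14KO and WT26 by -0.01 to 9.14 on the log2 scale, with 1 (MurSAT1) past the threshold. The MurSAT1 input also differed between the controls, by 3.90 in RBC against WT26 (edgeR, adjusted p = 0.0233). In Mettl3KO against RBC it was at -2.65 (edgeR, adjusted p = 0.0696).

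The 5 features whose log2 counts were most like those of Gm10801 over the 16 MeRIP libraries were Gm12514 (Pearson r 0.761), Cdkn2b (0.700), Cdk3-ps (0.694), Gm15200 (0.693) and Gm43266 (0.685). All 5 had low counts, 3 to 40 reads in the Mettl14KO inputs and 0 to 54 in the other 14 libraries. None of the other 9 genes of the set was among them.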

How the data were processed

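Per the labels, RNA of 4 mouse ES cell lines was sequenced after a stranded total RNA library preparation, and the study's methods give nuclear RNA, 75 bp paired reads and 3 MeRIP reactions combined per replicate. The deposited values are raw counts per gene, and in MeRIP also per repeat subfamily. The submitters' processing notes name cutadapt 1.8.1 and STAR 2.6.0c on GRCm38, where the authors kept reads of up to 100 positions, and MeRIP reads went to genes and repeats by TEtranscripts 2.0.3 (multi mode), which shares out a read among the features that match it. The counting tool and strand setting of RNA-seq are not given in the sources used here. Totals were 11321459 to 13743181 (RNA-seq) and 9394163 to 28441282 (MeRIP), so genes with a few reads have wide counting error.

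Counts were scaled with DESeq2 1.42.0 size factors, filtered with filterByExpr and fitted with the edgeR 4.0.16 quasi-likelihood test over all libraries of an assay (R 4.3.3), with Benjamini-Hochberg adjustment over all features. A gene was called in RNA-seq at an adjusted p of 0.05 and a log2 change over 1, and the difference between knockouts at the adjusted p alone. The SE of a fitted log2 value was its absolute value divided by the square root of the F statistic of its test. It was not read from the fit, and it is approximate, above all where counts are few. Ratios of IP to input used log2(normalized count + 1). On simulated data the test recovered 100% of 200 genes changed 4-fold in RNA-seq (16503 genes, Mettl14KO against WT26) and 61% in MeRIP (21776 features, enrichment in WT26). Labels name separate samples, and the methods call them biological replicates.

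The members and lists were chosen with earlier results of these data known. All 10 genes were named, with GSAT_MM, SYNREP_MM and MMSAT4, Mettl3 and Mettl14, genes within 50 kb with more reads than a member, and the 5 features most correlated with Gm10801. MurSAT1 was named after its value was seen. Input and IP numbers were taken as pairs, since both come from the same reactions and the deviations of replicate 1 correlated in every line (r = 0.235, 0.195, 0.219 and 0.280 over 13662 features). Alternatives were other scalings, no filter, DESeq2, blocks, fewer libraries and leave-one-out fits. Exons were taken from GENCODE vM21 and sequence from RefSeq GRCm38.p6, aligned with MAFFT 7.526. No member had an entry in the promoter table.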

Additional observations from a re-analysis of the deposited data

Results flagged for a closer look

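For 4 genes the RNA-seq effect of the Mettl14 knockout differed from that of the Mettl3 knockout in a test of the difference itself (edgeR, n = 2 per line). On the log2 scale, the difference was 4.32 for Gm10801 (adjusted p = 9.21e-12), which was higher in both knockouts than in their controls but by far more in Mettl14KO. It was -1.49 for Gm10800 (adjusted p = 7.97e-06), -3.64 for Gm10717 (adjusted p = 0.000849) and -4.44 for Gm10718 (adjusted p = 0.0186). Gm10801 was the gene that led to the choice of the set, so its value is not independent of that choice. Gm10718 passed the count filter only where the Mettl3KO libraries, in which it is highest, were in the fit. Without WT26 replicate 1 or Mettl14KO replicate 2, the value of Gm10718 was -3.44 (adjusted p = 0.221) or -3.57 (adjusted p = 0.0873). The knockouts are 1 clone each, from different parent lines, and what lies behind the differences was not tested.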

How the results depend on the processing

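Gm10801 in Mettl14KO, Gm10800 in Mettl3KO and the knockout difference of both kept their direction under every alternative run, and their call under all but 1 for Gm10800 (0.94 without Mettl3KO replicate 1). Members called in RNA-seq numbered 1 to 2 (Mettl14KO), 1 to 3 (Mettl3KO) and 0 to 1 (RBC against WT26) when a library was left out, with the lone library of a line taken to vary like the other lines. They were 1 in Mettl3KO and 1 between the controls with DESeq2, and they were 4 between the controls by adjusted p alone. The shares of all genes called under these alternative settings are not given here. The counts show only how the calls depend on the setting. With only the libraries compared the count between the controls was 0, but there Gm10722 and Gm11168 were removed by the filter and 2 other members were tested, so no call was lost to a test. GSAT_MM enrichment passed the threshold in WT26 with library size scaling (2.21), no filter (1.81), the block of input and IP pairs (1.91) and only the libraries compared (1.79), and in RBC with no filter (1.41) and the block (1.40). Its input difference between Mettl14KO and WT26 passed with no filter (-1.72), the replicate number as a block (-1.51) and only the libraries compared (-1.74), and not with other scalings, DESeq2, members summed or 1 library left out (-2.32 to -0.69). With 1 library left out it ran from -0.97 to 0.99 in Mettl3KO, with -0.46 and -0.97 reversed, and from -1.08 to 0.85 between the controls, with 0.85 and 0.36 reversed. The median enrichment of the members was 2.11 (WT26), 1.22 (RBC) and -0.14 (Mettl3KO) with library size scaling. With the members summed it was -0.72 (Mettl14KO), 2.09 (RBC) and 0.91 (Mettl3KO), and with only the libraries compared -1.37 (Mettl14KO) and 0.28 (Mettl3KO). Its change in Mettl14KO was -2.72 summed and -1.78 with only the libraries compared. With 1 pair left out the medians ran from 1.56 to 2.33 (WT26), 0 to 2.83 (Mettl14KO), 1.07 to 1.48 (RBC) and -0.24 to 0.35 (Mettl3KO), and the change in Mettl14KO from -1.71 to 1.03. With 1 library left out, reversals were confined among single genes in RNA-seq to Gm10722 and Gm11168: Gm10722 ran from -3.68 to 2.30 in Mettl14KO and from -0.21 to 0.55 in Mettl3KO (-0.20 also reversed), Gm11168 from -0.54 to 1.38 in Mettl14KO, and their knockout differences from -3.84 to 2.15 and from -1.31 to 0.60 (0.34, 0.36 and 0.04 also reversed). The cause was not tested.

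No source ties RNA-seq replicate numbers across lines. Their deviations correlated at r = -0.07 between WT26 and Mettl14KO and at 0.45 between RBC and Mettl3KO (11879 genes), and a fit blocked on that number called the same 2, 3 and 2 members. Depth limits the chromosome 9 genes, and 2 libraries per group limit every test. Ratios of genes with 1 to 3 reads in a line are given with counting intervals, and the calls of Gm10722, Gm11168 and Gm10718 that use such lines rest on those few reads.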
